A study of Rattus norvegicus with 27 samples.

Results

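The genes of the proteasome were followed across 3 brain regions of 2 rat models of diabetes and their controls. Members were all probes for which the array annotation gives a gene name that begins with Psm, then a letter from a to g, then a digit. This rule, which uses no measured value, found 50 probes of 42 genes among 41012 probes that are not controls. All 50 were well above background on all 27 arrays, so that none was lost to the filter on dim probes, and none was saturated. The immune subunits Psmb8, Psmb9, Psmb10, Psme1 and Psme2 had 1 probe each and were set against the other 45 probes of 37 genes. The name rule also caught Psmc3ip, a DNA recombination factor that only carries the prefix, and it is kept apart by role. The array listed 5 further probes of this family under other names, which are not members.

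All rats were male and 10 weeks old. Control rats were untreated Wistar rats with a mean blood sugar of 7.64 mmol/l. Goto-Kakizaki rats, an inbred, non-obese strain derived from Wistar rats that develops type 2 diabetes by inheritance, had a mean of 13.9 mmol/l. The third group were Wistar rats given 65 mg/kg streptozotocin, a toxin of the pancreatic beta cells, into a vein at 6 weeks of age. These served as a model of type 1 diabetes, had a mean blood sugar of 26.34 mmol/l and were killed 4 weeks after the injection. Each of the 9 groups of region and animal had 3 arrays, each with the pooled RNA of 3 of the 9 animals of its kind. Strain and diabetes cannot be told apart in the Goto-Kakizaki rats, and all 3 regions came from the same 9 animals, so that the regions are not independent.

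The proteasome is the barrel-shaped protease that degrades proteins marked with ubiquitin in the cytosol and the nucleus. Its core particle is built of outer alpha rings, which gate the entry, and inner beta rings, which carry the active sites in Psmb5, Psmb6 and Psmb7. The regulatory particle caps the core, with a ring of ATPases that unfolds substrates and non-ATPase subunits that bind and remove ubiquitin chains. After exposure to interferon, Psmb8, Psmb9 and Psmb10 take the places of the catalytic subunits in newly assembled cores. This immunoproteasome, together with the activator made of Psme1 and Psme2, is known for the production of peptides for major histocompatibility class I molecules. In the brain, neurons mainly use the constitutive form, and microglia are a known source of the immune form.

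Levels are given as the log2 of the processed signal over the 75th percentile of the same array, so that a difference of 1 is a 2-fold change. Since every probe binds with its own strength, levels of different probes are not compared. Immune subunits are close relatives of the subunits that they replace, so the 60-base probes of 2 such pairs are shown. The probe of Psmb8 and that of its counterpart Psmb5 read, in the sense direction:

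Psmb8: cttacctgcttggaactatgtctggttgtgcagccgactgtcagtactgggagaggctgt
Psmb5: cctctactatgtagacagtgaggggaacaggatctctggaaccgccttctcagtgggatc

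The probes of Psmb9 and its counterpart Psmb6 read:

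Psmb9: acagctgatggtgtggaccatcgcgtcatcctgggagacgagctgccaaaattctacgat
Psmb6: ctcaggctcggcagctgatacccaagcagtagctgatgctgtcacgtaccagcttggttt

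No member probe shared a run of more than 11 bases with the probe of another member gene. The longest run that the Psmb8 probe shared with the probe of any other member gene was 8 bases. Only probes were compared with each other, so matches of a probe to the transcripts of other genes were not tested.

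The arrays had 67.4% to 75.3% of all probes well above background. Genes that mark the striatum were higher in striatum than in hippocampus of control rats for 6 of 6 markers, and Prox1 and Zbtb20, which mark the hippocampus, were both lower there. In prefrontal cortex, the log2 of the summed level of the striatal markers was 2.73, 1.41 and 3.25 for the controls, 2.07, 2.09 and 2.17 for the Goto-Kakizaki arrays and 1.53, 1.43 and 1.71 for the streptozotocin arrays. Control replicates 1 and 3 were the highest, and 3 of 6 of these markers were lower than in controls in the Goto-Kakizaki and 2 of 6 in the streptozotocin group (medians over the 6 of -1.27 and -0.9997). Over all probes, 8.8% and 2.68% were past the threshold in these comparisons. The part of the difference in striatal tissue content in the prefrontal results was not tested. In hippocampus, the log2 of the summed level of 6 choroid plexus markers ran from 1.35 to 6.93 in controls. It ran from 4.35 to 7.23 in Goto-Kakizaki and from 1.65 to 1.79 in streptozotocin arrays. The part of choroid plexus content in the hippocampal results was not tested either. Replicate 2 of the Goto-Kakizaki striatum and replicate 2 of the control striatum stood apart from the other arrays of their group for the proteasome genes, so that results in striatum are also given without them. The median SD of a member probe within a group ran from 0.065 (hippocampus of Goto-Kakizaki rats) to 0.28 (their striatum), with 0.24 in the control striatum. Group means lay closer together for the family than for all probes. The distance between the lowest and the highest group mean had a median of 0.45 over the 50 probes against 0.93 over 32078 probes tested. It reached 1 for 2 members, Psmb8 with 1.58 and a probe of Psme4 with 1.21. That is 4% of the members against 44.9% of all probes. The wider set also held probes that were not well above background on every array. Its median SD was larger within every group, such as 0.093 against 0.065 in the Goto-Kakizaki hippocampus. Probes of like brightness were not compared.

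Psmb8, the immune counterpart of the subunit with chymotrypsin-like activity, stood above the controls in all 3 regions of Goto-Kakizaki rats. In hippocampus, its levels were -1.17, -1.55 and -1.45 in controls and -0.46, -0.49 and -0.78 in Goto-Kakizaki rats. In prefrontal cortex they were -1.19, -1.26 and -0.86 in controls and -0.35, -0.22 and -0.41 in Goto-Kakizaki rats. In striatum they were -0.82, -1.08 and -0.98 in controls and -0.02, 0.73 and -0.15 in Goto-Kakizaki rats. Every Goto-Kakizaki array lay above every control array of its region, and replicate 2 of the striatum was the highest of all. The log2 difference was 0.81 ± 0.18 (standard error) in hippocampus, 0.77 ± 0.18 in prefrontal cortex and 1.15 ± 0.18 in striatum (limma, adjusted p = 0.00672, 0.00728 and 0.000166), which are 1.76-fold, 1.71-fold and 2.21-fold. The sizes in the 3 regions were not shown to differ (moderated F-test, adjusted p = 0.574). In tissue RNA, more cells that carry a transcript and more transcript per cell cannot be told apart.

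The Psmb8 difference stayed past the threshold when any of the 6 arrays of a comparison was left out, with values from 0.73 to 0.92, 0.70 to 0.89 and 0.88 to 1.31 in hippocampus, prefrontal cortex and striatum. Without replicate 2 of both striatum groups it was 0.82 (adjusted p = 0.00282). With the slide as a block, it was 0.75 in hippocampus (adjusted p = 0.0685) and 1.01 in striatum (adjusted p = 0.0506). It was no longer past the threshold in these fits. In prefrontal cortex, no Goto-Kakizaki array shared a slide with a control array, so that no value within a slide can be given. With the slide as a random block the difference was 0.78 (limma, adjusted p = 0.00747). The correlation within slides in that fit was 0.015, so it stayed close to the main fit and cannot separate strain from slide. Arrays of different groups on slides 5, 6 and 7, which held the prefrontal controls, deviated together, with mean correlations of 0.47, 0.65 and 0.48 over probes.

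In streptozotocin-treated rats, the levels of Psmb8 were -1.17, -1.002 and -1.06 in hippocampus, -0.83, -0.82 and -0.96 in prefrontal cortex and -0.90, -0.67 and -0.48 in striatum. These values overlapped with those of controls in all 3 regions, in each of them by the lowest treated array alone. Differences from control were 0.31, 0.23 and 0.28, each with a standard error of 0.18 and an adjusted p of 0.462, 0.612 and 0.405, respectively (limma). When both models were compared directly over the 3 regions, Psmb8 was higher in Goto-Kakizaki rats by 0.50 in hippocampus, 0.54 in prefrontal cortex and 0.87 in striatum (moderated F-test, adjusted p = 0.000698).

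**Figure D1:**
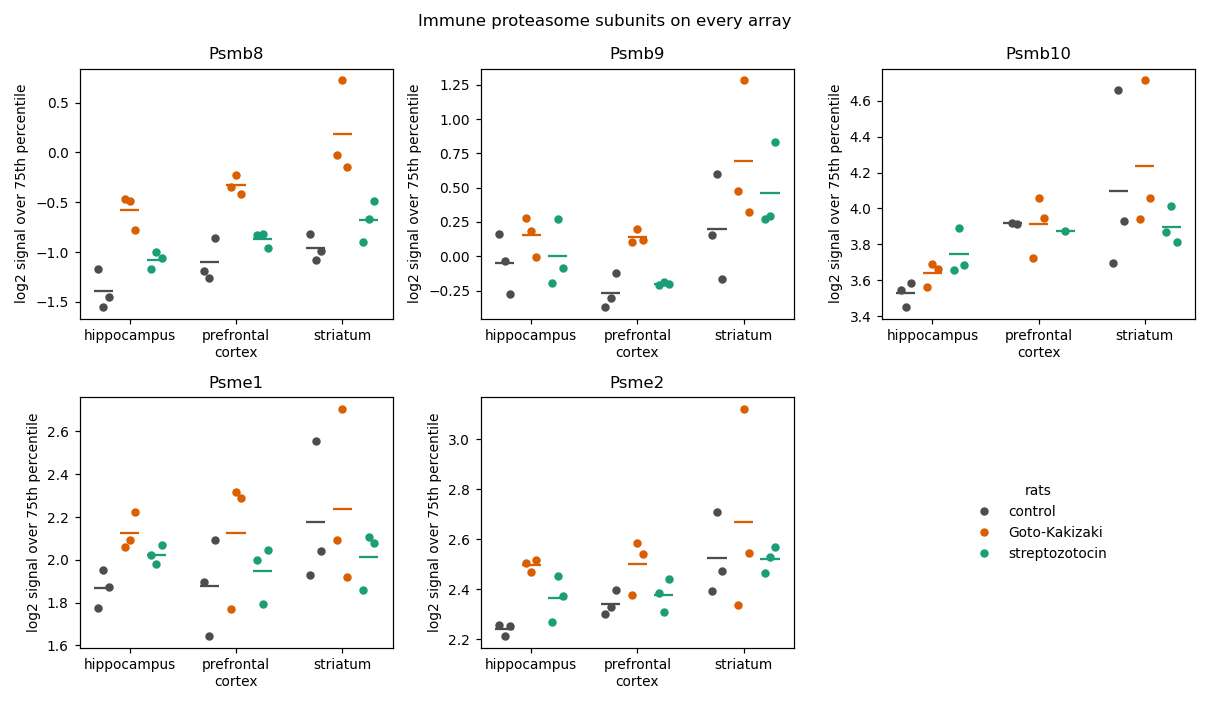
Log2 level over the 75th percentile of the array (vertical axis) of the 5 immune subunit probes in 3 brain regions, with 1 point for each pool of 3 rats and a bar at the group mean. The Psmb8 points of Goto-Kakizaki rats lie above those of the controls in all 3 regions, while the points of the other immune subunits overlap in 1 or more regions.

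The other immune subunits did not pass the threshold against controls in any region. Psmb9, the immune counterpart of the caspase-like subunit Psmb6, had control levels of 0.16, -0.04 and -0.27 in hippocampus, -0.37, -0.31 and -0.12 in prefrontal cortex and 0.15, 0.60 and -0.16 in striatum. The Goto-Kakizaki levels were 0.28, 0.18 and 0.00 in hippocampus, 0.11, 0.20 and 0.12 in prefrontal cortex and 0.48, 1.29 and 0.32 in striatum. The arrays did not overlap in prefrontal cortex and overlapped in the other regions. The differences were 0.20, 0.41 and 0.50, each ± 0.22 (standard error), with limma adjusted p of 0.768, 0.287 and 0.137. In streptozotocin-treated rats, Psmb9 stood at -0.19, 0.28 and -0.08 in hippocampus, -0.21, -0.19 and -0.20 in prefrontal cortex and 0.27, 0.29 and 0.83 in striatum. The group means differed from those of controls by 0.05, 0.07 and 0.27, none past the threshold.

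Psmb10, the immune counterpart of the trypsin-like subunit Psmb7, had control levels of 3.55, 3.45 and 3.59 in hippocampus and 3.70, 4.66 and 3.93 in striatum. Its Goto-Kakizaki levels were 3.56, 3.69 and 3.66 in hippocampus and 3.94, 4.72 and 4.06 in striatum. Replicate 2 was far above the others in both striatum groups, so that the difference of 0.14 ± 0.20 there was small beside the spread. In prefrontal cortex, Feature Extraction marked 3 spots of this probe as outliers, and they were left out. The remaining levels were 3.92 and 3.91 in controls, 3.73, 4.06 and 3.95 in Goto-Kakizaki rats and 3.88 on the single array left of the streptozotocin group. The other streptozotocin levels were 3.66, 3.89 and 3.68 in hippocampus and 3.87, 4.01 and 3.81 in striatum.

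Psme1 and Psme2 form the ring-shaped activator that opens the gate of the core for peptides. In hippocampus, Psme2 had levels of 2.26, 2.21 and 2.25 in controls and 2.50, 2.47 and 2.52 in Goto-Kakizaki rats. The groups did not overlap, and the difference of 0.26 ± 0.14 did not pass the threshold (adjusted p = 0.391). The Psme2 levels in prefrontal cortex were 2.30, 2.33 and 2.40 in controls and 2.38, 2.58 and 2.54 in Goto-Kakizaki rats, and those in striatum were 2.39, 2.71 and 2.47 in controls and 2.34, 3.12 and 2.55 in Goto-Kakizaki rats. The groups overlapped in both regions. In streptozotocin-treated rats Psme2 measured 2.27, 2.45 and 2.37 in hippocampus, 2.39, 2.31 and 2.44 in prefrontal cortex and 2.47, 2.53 and 2.57 in striatum.

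Psme1 had levels of 1.77, 1.95 and 1.87 in the control hippocampus and 2.06, 2.09 and 2.22 in the Goto-Kakizaki hippocampus. Its levels were 1.90, 1.64 and 2.09 against 1.77, 2.32 and 2.29 in prefrontal cortex, and 1.93, 2.55 and 2.04 against 2.09, 2.71 and 1.92 in striatum. The groups were apart in hippocampus alone, and the differences of 0.26, 0.25 and 0.06 (standard error 0.19) were not past the threshold. Streptozotocin-treated rats had 2.02, 1.98 and 2.07 in hippocampus, 2.00, 1.79 and 2.05 in prefrontal cortex and 1.86, 2.11 and 2.08 in striatum. In hippocampus, the streptozotocin arrays also lay above all controls for Psme1, Psme2 and Psmb10, with no difference past the threshold. The share of all probes with groups apart is not given.

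Set beside the immune subunits, the constitutive catalytic subunits showed other values. Psmb5, the counterpart of Psmb8, differed between Goto-Kakizaki rats and controls by 0.14, 0.40 and 0.07 in hippocampus, prefrontal cortex and striatum (standard error 0.17, adjusted p = 0.816, 0.165 and 0.829). Psmb6, the counterpart of Psmb9, differed by 0.07, 0.10 and -0.22 (standard error 0.18). Psmb7, the counterpart of Psmb10, differed by 0.14, 0.50 and -0.07 (standard error 0.15), and its rise in prefrontal cortex passed the threshold. The difference between the members of a pair was not tested.

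**Figure D2:**
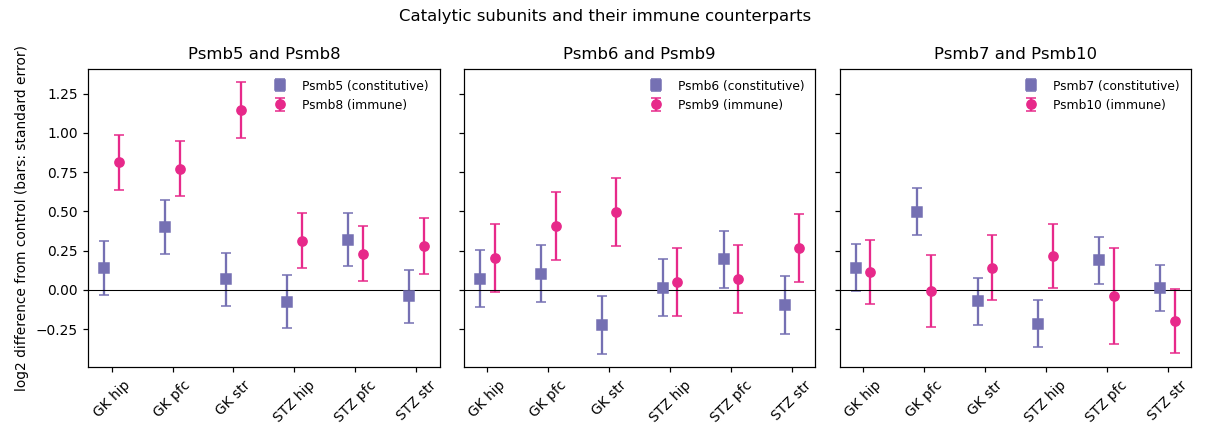
Log2 difference from controls (vertical axis, with bars of 1 standard error) of the 3 constitutive catalytic subunits (squares) and their immune counterparts (circles) in Goto-Kakizaki (GK) and streptozotocin-treated (STZ) rats; hip, hippocampus; pfc, prefrontal cortex; str, striatum. Psmb8 stands at 0.81, 0.77 and 1.15 in Goto-Kakizaki rats, where Psmb5 stands at 0.14, 0.40 and 0.07.

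Psmb8 and Psmb9 lie in the major histocompatibility region, where the order of the protein-coding genes in the RefSeq annotation is Tap2, Psmb8, Tap1, Psmb9. Tap1 and Tap2 encode the transporter that carries proteasome products into the endoplasmic reticulum. In the Goto-Kakizaki rats, Tap1 differed from controls by -0.50, -0.27 and 0.31, and Tap2 by 0.17, -0.72 and 0.08 in hippocampus, prefrontal cortex and striatum, with no value past the threshold. As these subunits are known to respond to interferon, the promoters of Psmb8 and Psmb9 (RefSeq, GRCr8) are shown from 250 bases before to 10 bases after the annotated start, with matches to the interferon regulatory factor motif GAAANNGAAA, on either strand, in capitals. The Psmb8 sequence is chr20:4657022-4657281 on the minus strand, and the Psmb9 sequence is chr20:4668750-4669009 on the plus strand.

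Psmb8: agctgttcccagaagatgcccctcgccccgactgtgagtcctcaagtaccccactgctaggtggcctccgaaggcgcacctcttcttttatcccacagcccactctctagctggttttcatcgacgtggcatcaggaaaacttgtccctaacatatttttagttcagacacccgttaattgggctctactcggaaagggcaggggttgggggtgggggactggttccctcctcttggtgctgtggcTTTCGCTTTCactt
Psmb9: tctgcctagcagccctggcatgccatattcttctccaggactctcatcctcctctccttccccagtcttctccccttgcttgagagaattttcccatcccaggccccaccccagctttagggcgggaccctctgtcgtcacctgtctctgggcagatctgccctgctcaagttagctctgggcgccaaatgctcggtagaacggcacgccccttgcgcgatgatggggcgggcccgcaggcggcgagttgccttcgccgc

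The Psmb8 promoter holds 1 match, which lies across the annotated start, and the Psmb9 promoter holds none. Windows of 300 bases (250 before to 50 after the start) were found for 37 of the 40 subunit genes looked up under their RefSeq symbols. The motif was present in 3 of 5 immune promoters (Psmb8, Psmb10 and Psme2) and in 3 of 32 other members (Psma4, Psmb3 and Psmd7), against 3.92% of 33469 rat promoters. The match in the Psmb8 promoter overlapped with no match to the other motifs searched. These were the Stat motif TTCNNNGAA (8.87% of all promoters, 1 of 5 immune and 3 of 32 other members), the antioxidant response motif GTGACNNNGC (3.99%, 0 of 5 and 4 of 32, with Psmb5 and Psmb6 among them) and CCAAT (37.5%, 2 of 5 and 17 of 32). A match describes the letters only, and a promoter without one may still be bound.

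Genes of antigen processing and interferon response formed the list closest to the immune subunits. Of 26 such genes measured, 8 rose and 0 fell in hippocampus of Goto-Kakizaki rats, 10 rose and 0 fell in prefrontal cortex, and 12 rose and 1 fell in striatum. Over all probes tested, 2.35%, 4.26% and 6.49% rose past the threshold in these regions, and 7.34% fell in striatum. The medians of the list were 0.29, 0.38 and 0.49, beside medians of -0.04, 0.01 and 0.02 over all probes tested. Irf7, a transcription factor of the interferon system, rose by 1.45, 2.09 and 2.31 in the 3 regions. Not all genes of the list followed: Ifit1, an antiviral RNA-binding protein, differed by -0.32, -0.53 and -0.36 and the antiviral GTPase Mx1 by -1.75 in hippocampus, none of them past the threshold, while Mx1 rose by 1.97 in striatum. B2m, the light chain of class I molecules, differed by 0.12, 0.02 and 0.17 and did not pass the threshold. In streptozotocin-treated rats, 2, 0 and 5 genes of the list rose and 0 fell, with medians of 0.26, 0.16 and 0.20. Over all probes, 2.2%, 2.68% and 3.27% were past the threshold in either direction there, with medians of -0.01, 0.01 and -0.03. The genes of the list were chosen with earlier results of these data known, so the list is no independent evidence.

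Markers of microglia, which are known to express immune subunits, were followed beside Psmb8. Of 11 such markers, 0 rose and 2 fell (Itgam and Tmem119) in hippocampus of Goto-Kakizaki rats, 3 rose (C1qa, C1qb and C1qc) in prefrontal cortex, and 4 rose (the same C1q genes and Cd68) in striatum. Over all probes, 5.12%, 8.8% and 13.8% were past the threshold in these comparisons. The medians of the list were -0.31, 0.01 and 0.51, beside -0.04, 0.01 and 0.02 over all probes. In prefrontal cortex, Itgam and Tmem119 lay below every control array without passing the threshold. Itgam had -1.51, -0.73 and -1.07 in controls and -2.12, -2.05 and -2.13 in Goto-Kakizaki rats there. The summed level given next is weighted to the brightest probes, such as C1qb. The log2 of their summed level ranged from 4.86 to 5.23 in controls and 5.22 to 5.32 in Goto-Kakizaki rats in hippocampus, from 5.24 to 5.39 and 5.69 to 5.97 in prefrontal cortex, and from 5.33 to 5.52 and 5.80 to 6.48 in striatum. Aif1, a defining marker, differed by -0.04, 0.01 and 0.04. Of 8 endothelial markers, Vwf fell in hippocampus and Tek rose in striatum. The part of these cells in the Psmb8 difference was not tested.

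Over the whole family, few members were past the threshold in hippocampus of Goto-Kakizaki rats. There, 3 of 50 probes rose and none fell. Over all probes, 5.12% were past the threshold and 2.35% rose. Next to Psmb8 these were Psma2, a subunit of the outer ring, and Psmd7, a non-ATPase subunit of the regulatory lid. The median over the members was 0.14, beside -0.04 over all probes, and 43 of 50 estimates were above 0. Each of the 9 probes of the alpha ring and of the 7 probes of the constitutive beta ring had an estimate above 0, with medians of 0.20 and 0.20. The 8 probes of the ATPases had a median of 0.05, and the 14 non-ATPase probes one of 0.12.

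Psma2 had hippocampal levels of 2.64, 2.65 and 2.93 in controls and 3.19, 3.19 and 3.16 in Goto-Kakizaki rats. The Goto-Kakizaki arrays lay close together and above all controls, with a difference of 0.44 ± 0.12 (adjusted p = 0.0311), or 1.36-fold. It was past the threshold in 1 of 6 fits that left out an array, the one without control replicate 3, with values from 0.39 to 0.53. Psmd7 was measured by 3 probes. The dimmest probe (A_44_P536806) gave 1.00, 1.43 and 1.18 in controls and 1.60, 1.73 and 1.61 in Goto-Kakizaki rats, which did not overlap, and a difference of 0.45 ± 0.11 (adjusted p = 0.0188). The second probe (A_44_P310386) gave 3.35, 3.57 and 3.46 against 3.57, 3.82 and 3.79, a difference of 0.27 (adjusted p = 0.223). The last probe (A_44_P362723) gave 3.22, 3.42 and 3.25 against 3.31, 3.41 and 3.47, a difference of 0.10 (adjusted p = 0.821), so that the rise rests on 1 of 3 probes. It was past the threshold in 2 of 6 fits that left out an array. Psmb8 alone was past the threshold without Goto-Kakizaki replicate 2, Goto-Kakizaki replicate 3 or control replicate 1.

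In Goto-Kakizaki prefrontal cortex, 2 of 50 probes rose, Psmb8 and Psmb7, and none fell, beside 8.8% of all probes past the threshold and 4.26% that rose. The median of the members was 0.13, beside 0.01 over all probes. It was 0.04 without Goto-Kakizaki replicate 3 and 0.22 without replicate 1, and with quantile normalization it was 0.06 beside 0.04. The 7 probes of the constitutive beta ring all had estimates above 0 (median 0.29), whereas 6 of 9 alpha ring probes had estimates below 0 (median -0.11). Psmb7, the subunit with trypsin-like activity, had levels of 3.32, 3.02 and 3.35 in controls and 3.45, 3.67 and 4.05 in Goto-Kakizaki rats. The groups did not overlap, with Goto-Kakizaki replicate 3 far above the others, and the difference was 0.50 ± 0.15 (adjusted p = 0.0396), or 1.41-fold. It was past the threshold in 1 of 6 fits that left out an array, the one without Goto-Kakizaki replicate 1 (values from 0.33 to 0.63). The other 5 fits left Psmb8 as the only member past the threshold. In streptozotocin-treated rats, Psmb7 stood at 3.49, 3.31 and 3.45 in this region.

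In striatum of Goto-Kakizaki rats, 1 of 50 probes rose (Psmb8) and 7 fell, beside 13.8% of all probes past the threshold (6.49% higher and 7.34% lower). The fallen probes were 4 of the alpha ring (Psma4, Psma5 and both probes of Psma6), Psmd1 and Psmd6 of the regulatory particle, and Psmc3ip. Their differences lay between -0.35 and -0.43. The median over the members was -0.10, beside 0.02 over all probes. All 9 alpha ring probes had estimates below 0 (median -0.35), while the 8 ATPase probes (median -0.08) and the 7 constitutive beta ring probes (median -0.07) stood nearer to 0. With normexp background correction, the median of the members was 0.10 and that of all probes -0.27, so that the direction of the family median depended on the background correction. It also depended on single arrays, with 0.03 without control replicate 2, -0.03 without Goto-Kakizaki replicate 3 and -0.21 without Goto-Kakizaki replicate 2. Without replicate 2 of both groups it was -0.11.

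Psma6 is a subunit of the outer ring with 2 probes. The brighter one (A_43_P14214) had levels of 5.76, 6.07 and 5.96 in the control striatum and 5.64, 5.45 and 5.49 in the Goto-Kakizaki striatum. The other one (A_44_P1006334) had 4.35, 4.76 and 4.41 against 4.19, 4.10 and 4.13. Neither probe had overlapping groups, and the differences were -0.40 ± 0.11 (adjusted p = 0.0188) and -0.36 ± 0.12 (adjusted p = 0.0428). The bright probe had levels of 5.28, 5.22 and 5.25 in the control hippocampus against 5.33, 5.47 and 5.61 in Goto-Kakizaki rats, a difference of 0.22 that did not pass the threshold. In prefrontal cortex its levels were 5.45, 5.56 and 5.61 against 5.08, 5.46 and 5.40, a difference of -0.22.

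Psmd1, the largest subunit of the regulatory particle, serves as a scaffold of its base. Its bright probe (A_44_P1056810) had striatal levels of 5.84, 6.23 and 6.02 in controls and 5.63 and 5.61 on 2 arrays of Goto-Kakizaki rats, since the spot of replicate 1 was left out as an outlier. The difference was -0.41 ± 0.12 (adjusted p = 0.0279). The other probe (A_44_P411919) had 2.79, 3.14 and 2.62 against 2.83, 2.69 and 2.72, with overlapping groups and a difference of -0.10 (adjusted p = 0.644). Psmc3ip had levels of 0.17, 0.72 and 0.33 in controls and -0.09, 0.12 and -0.04 in Goto-Kakizaki rats, a difference of -0.41 ± 0.12 (adjusted p = 0.0236).

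Whether the falls in striatum passed the threshold depended on single arrays, among them replicate 2 of the controls. This replicate was the highest control array for all of the probes just given. Without it, Psmb8 was the only member past the threshold, and without Goto-Kakizaki replicate 3 the count was 3. The falls kept their direction in all fits that left out 1 array. Psma4 then ranged from -0.45 to -0.19 and the bright Psma6 probe from -0.49 to -0.33. Of the 6 such fits, the bright Psma6 probe was past the threshold in 2, the other Psma6 probe in 1 and the bright Psmd1 probe in 2. Psma4 and Psmc3ip were past it in 3 each, and Psma5 and Psmd6 in 4 each. Leaving out replicate 2 of both striatum groups left 2 probes past the threshold, Psmb8 among them, and the 7 probes that had fallen then had differences from -0.11 to -0.33 with an adjusted p of 0.0728 or more. With the slide as a block, no member was past the threshold. All 3 Goto-Kakizaki arrays of the striatum shared a slide with control replicate 1, and the other controls lay on other slides.

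**Figure D3:**
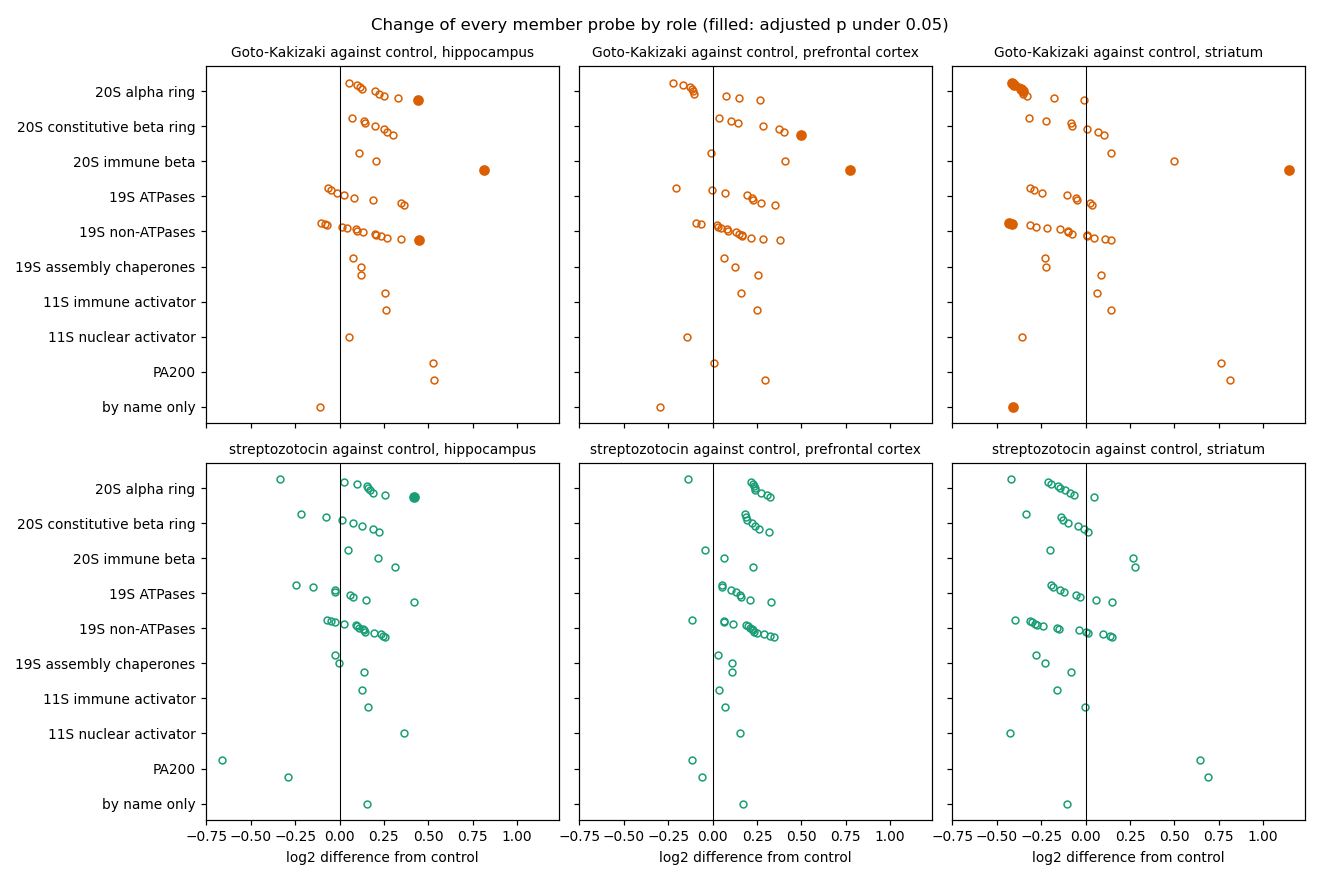
Log2 difference from controls (horizontal axis) of all 50 member probes, grouped by role, in the 6 comparisons of a diabetic model with controls. Filled points have an adjusted p under 0.05. Psmb8 is the filled point of the immune beta row in the 3 Goto-Kakizaki panels, and the filled points left of 0 in striatum are the 7 probes that fell.

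Whether the Goto-Kakizaki effect differed between regions was tested with a moderated F-test. It found 0 of 50 members past the threshold (limma), beside 0.867% of all probes, with 15 members at an unadjusted p under 0.05, beside 17.2% of all probes. The smallest adjusted p was 0.0917, that of the bright Psma6 probe. Hence the rise of some members in hippocampus and the fall of others in striatum were not shown to be different effects.

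In streptozotocin-treated rats, 1 of 50 members passed the threshold in hippocampus, upward, beside 2.2% of all probes (1.13% upward). This was the bright probe of Psma6, with levels of 5.28, 5.22 and 5.25 in controls and 5.68, 5.74 and 5.59 in treated rats. The groups were clearly apart, and the difference was 0.42 ± 0.11 (limma, adjusted p = 0.048), or 1.34-fold. No streptozotocin array of hippocampus or striatum shared a slide with a control array of its region. Treatment and slide therefore cannot be told apart in these regions. The other Psma6 probe had 4.24, 4.12 and 3.95 against 4.20, 4.45 and 4.14, a difference of 0.16 (adjusted p = 0.612). The rise was past the threshold in 0 of 6 fits that left out an array (adjusted p from 0.0855 to 0.163). The median over the members was 0.12, beside -0.01 over all probes.

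In prefrontal cortex of streptozotocin-treated rats, 0 of 50 members passed the threshold of the limma test, beside 2.68% of all probes, and 8 had an unadjusted p under 0.05, beside 15.4% of all probes. Yet 45 of 50 estimates were above 0, with a median of 0.19 beside 0.01 over all probes. All 7 constitutive beta ring probes lay between 0.18 and 0.32, and 8 of 9 alpha ring probes were above 0, with Psma2 as the exception. With normexp background correction the median of the members was 0.08 and that of all probes 0.21, so that the members no longer stood above the rest. In striatum, 0 of 50 members passed (limma), beside 3.27% of all probes, and 7 had an unadjusted p under 0.05, beside 18.1% of all probes. There, 37 of 50 estimates were below 0, and the median was -0.12 beside -0.03, which turned to 0.10 beside -0.28 with normexp. Without control replicate 1 of the striatum, 2 members fell past the threshold. A test of the difference of the streptozotocin effect between regions found 0 of 50 members past the threshold (limma), beside 0.505% of all probes, with 6 at an unadjusted p under 0.05, beside 12.7% of all probes.

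When the 2 models were compared with each other over the 3 regions, 14 of 50 members were past the threshold of the moderated F-test, beside 26.2% of all probes. In no region did an array of one model share a slide with an array of the other, so that model and slide cannot be told apart there. With the slide as a random block the count was also 14. The correlation within slides in that fit was 0.015, so it stayed close to the main fit and cannot separate model from slide. Psma2 had the smallest p. Its levels in streptozotocin-treated rats were 2.25, 2.57 and 2.39 in hippocampus, 2.52, 2.53 and 2.68 in prefrontal cortex and 2.72, 2.69 and 2.88 in striatum. In Goto-Kakizaki rats it had 3.19, 3.19 and 3.16 in hippocampus, 2.84, 2.99 and 3.12 in prefrontal cortex and 3.28, 3.21 and 3.03 in striatum. The models did not overlap in any region, and Goto-Kakizaki rats were higher by 0.78, 0.40 and 0.41 (adjusted p = 4.63e-05). Against controls, Psma2 differed by 0.44, 0.26 and -0.01 in the Goto-Kakizaki model and by -0.34, -0.14 and -0.42 in the streptozotocin model. The last value had an adjusted p of 0.0547.

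Psmc3ip was lower in Goto-Kakizaki than in streptozotocin-treated rats by 0.27, 0.46 and 0.30 in hippocampus, prefrontal cortex and striatum, with Goto-Kakizaki levels of -0.35, -0.23 and -0.21, -0.64, -0.47 and -0.49, and -0.09, 0.12 and -0.04 (adjusted p = 0.005). Its levels in streptozotocin-treated rats were -0.07, 0.12 and -0.05, then -0.12, -0.19 and 0.10, and then 0.39, 0.30 and 0.21. No array of one model overlapped with the other. A probe of Psme4 (A_44_P219919), the nuclear activator PA200, was the only one of the 14 with a difference of 2-fold or more in a region, beside 6.45% of all probes past the threshold with such a difference. It had hippocampal levels of -1.16, -0.83 and -0.98 in Goto-Kakizaki rats, -2.16, -2.27 and -2.10 in streptozotocin-treated rats and -1.90, -1.42 and -1.24 in controls. The difference between the models was 1.19 in hippocampus, 0.41 in prefrontal cortex and 0.07 in striatum (adjusted p = 0.0201). The other Psme4 probe (A_44_P219915) had 0.79, 1.04 and 0.90 in Goto-Kakizaki rats, -0.02, 0.02 and 0.25 in streptozotocin-treated rats and -0.16, 0.52 and 0.75 in controls in hippocampus, but was not past the threshold of this test. The count of 14 fell to 7 without prefrontal cortex streptozotocin replicate 3, to 8 without prefrontal cortex Goto-Kakizaki replicate 2, and to 9 without any of the 3 Goto-Kakizaki arrays of the hippocampus or without prefrontal cortex streptozotocin replicate 1.

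**Figure D4:**
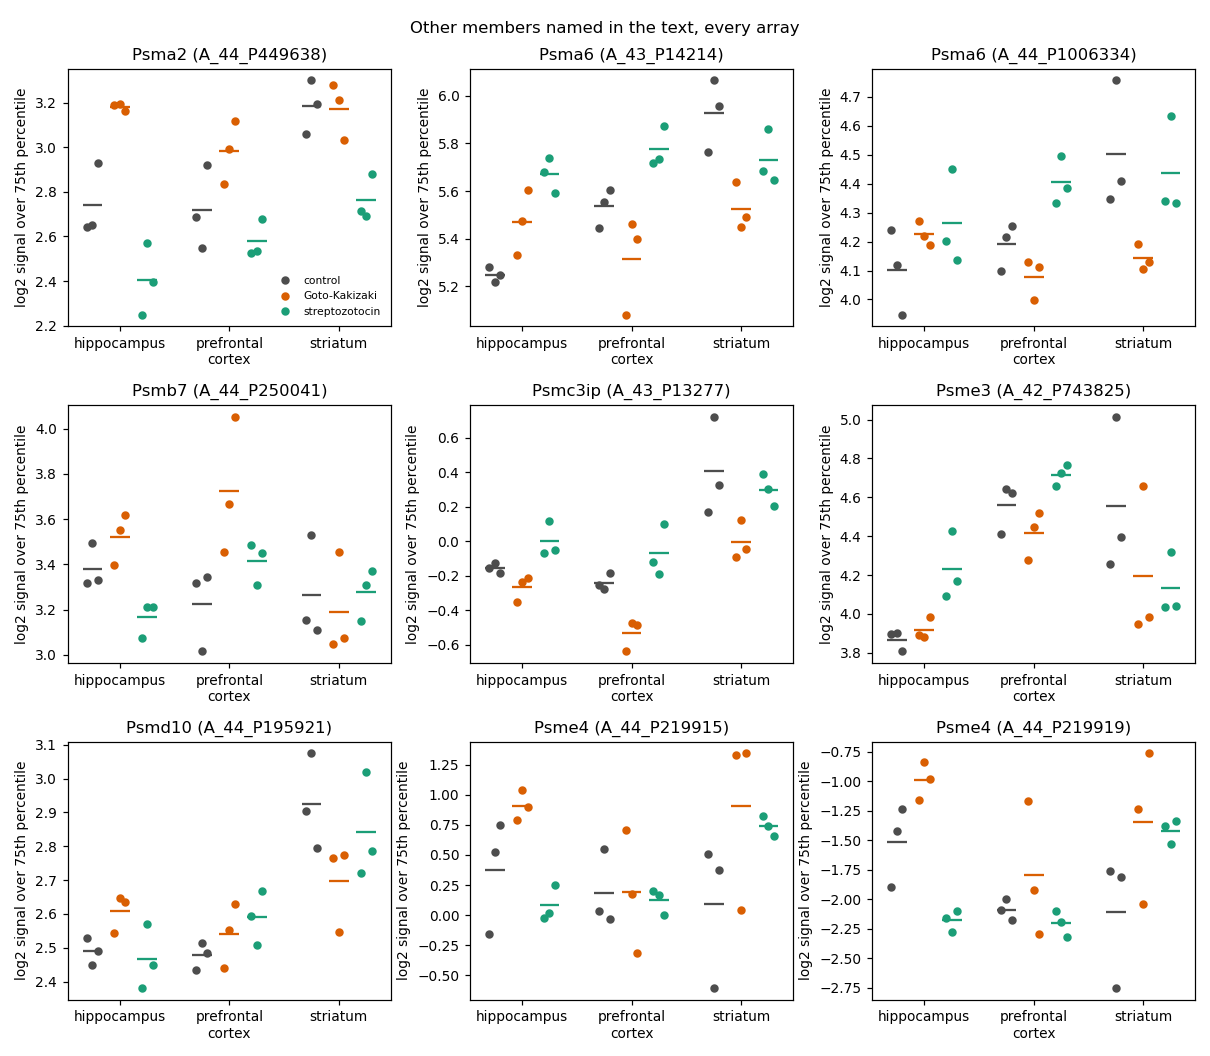
Log2 level over the 75th percentile of the array (vertical axis) of 9 member probes outside the immune subunits in 3 brain regions, with 1 point for each pool and a bar at the group mean. Psma2 is lower in all streptozotocin arrays than in all Goto-Kakizaki arrays of each region, and the 2 Psma6 probes are lower in the Goto-Kakizaki striatum than in the control striatum.

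Regions were compared in control rats. No control array of the hippocampus shared a slide with a control array of another region. In the comparisons with the hippocampus, region and slide therefore cannot be told apart. Between striatum and hippocampus, 13 of 50 members passed the threshold and all were higher in striatum, beside 29.5% of all probes (17% higher in striatum). The members were 5 probes of the alpha ring (both of Psma6, Psma2, Psma3 and Psma3l), Psmb1, Psmb10, the ATPase Psmc5, Psmd1, the assembly chaperones Psmd5 and Psmd10, the nuclear activator Psme3 and Psmc3ip. The median over the members was 0.28, beside 0.03 over all probes, and 0.05 beside 0.40 with normexp background correction, where 2 members were past the threshold. The bright Psma6 probe had the smallest p, with 5.28, 5.22 and 5.25 in hippocampus and 5.76, 6.07 and 5.96 in striatum, a difference of 0.68 ± 0.11 (adjusted p = 6.83e-05). Psmc3ip had -0.16, -0.12 and -0.18 in hippocampus and 0.17, 0.72 and 0.33 in striatum, a difference of 0.56 ± 0.12 (adjusted p = 0.000949). Psmd10, also known as gankyrin, which helps to assemble the ATPase ring, had 2.53, 2.45 and 2.49 against 2.90, 3.07 and 2.80, a difference of 0.44 ± 0.10 (adjusted p = 0.00203). None of these groups overlapped. Striatum control replicate 2 was the highest array for all of them, and without it the count fell from 13 to 5, with the bright Psma6 probe, Psmc3ip and Psmd10 still past the threshold. The count was 6 without hippocampus control replicate 3 and 8 without hippocampus control replicate 2.

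Between prefrontal cortex and hippocampus, 2 of 50 members passed the threshold and were higher in prefrontal cortex, beside 15.7% of all probes (8.74% higher). Psme3, which forms an activator ring in the nucleus, had 3.89, 3.90 and 3.81 in hippocampus and 4.41, 4.64 and 4.62 in prefrontal cortex, a difference of 0.69 ± 0.18 (adjusted p = 0.00863), or 1.62-fold. The striatum had 4.26, 5.01 and 4.40, and its difference from the hippocampus was also 0.69. The dimmest Psmd7 probe had 1.00, 1.43 and 1.18 in hippocampus and 1.68, 1.48 and 1.69 in prefrontal cortex, a difference of 0.42 ± 0.11 (adjusted p = 0.0117). It was not past the threshold without replicate 1 of the control hippocampus or replicate 3 of the control prefrontal cortex, which left Psme3 alone.

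Between striatum and prefrontal cortex, 5 of 50 members passed the threshold and were higher in striatum, beside 25% of all probes (12.9% higher). The median of the members was 0.12, beside 0.00 over all probes, and turned to -0.07 beside 0.40 with normexp. Psmc3ip had the smallest p, with -0.26, -0.27 and -0.19 in prefrontal cortex against the striatal levels given above, a difference of 0.65 ± 0.12 (adjusted p = 0.000262). Psmd10 had 2.43, 2.51 and 2.48 in prefrontal cortex and a difference of 0.45 ± 0.10 (adjusted p = 0.00181). Psmd5, another chaperone of the ATPase ring, had 1.40, 1.21 and 1.36 in prefrontal cortex and 1.60, 1.92 and 1.67 in striatum, a difference of 0.41 ± 0.10 (adjusted p = 0.0035). The groups were apart for these members. Psma2 and the bright Psma6 probe made up the remainder, with differences of 0.47 and 0.39.

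The family was also followed array by array. For every array, the deviation of each probe from its mean over the 27 arrays was taken, and the median over the 45 probes outside the immune subunits was calculated. It was -0.14, -0.11 and -0.15 in the control hippocampus and 0.00, 0.01 and 0.04 in that of Goto-Kakizaki rats. For the control striatum it was -0.02, 0.37 and -0.02, and in the Goto-Kakizaki striatum -0.09, 0.18 and -0.19. Replicate 2 was the highest array in both striatum groups. The same median over the 5 immune subunits was 0.48 on replicate 2 of the control striatum and 0.84 on replicate 2 of the Goto-Kakizaki striatum, whereas the median over all probes was 0.03 and 0.13 on these arrays. The immune median was -0.27, -0.24 and -0.29 in the control hippocampus and 0.06, 0.05 and -0.02 in the Goto-Kakizaki hippocampus. It was -0.29, -0.40 and -0.05 in the control prefrontal cortex and -0.07, 0.19 and 0.09 in the Goto-Kakizaki prefrontal cortex. These medians are given as a description, with no test.

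Genes that act with the proteasome were followed as a list of their own. Of 13 partners and regulators measured, none passed the threshold in hippocampus of Goto-Kakizaki rats, Adrm1, the ubiquitin receptor of the regulatory particle, rose by 0.57 in prefrontal cortex, and 3 fell in striatum. These were Uchl5 (-0.34), a deubiquitinase that binds to Adrm1, Ngly1 (-0.46), which activates a transcription factor of proteasome genes by removing its sugars, and Txnl1 (-0.34), a redox protein bound to the regulatory particle. These 3 are 23.1% of the list, beside the 13.8% of all probes past the threshold in that comparison. Without replicate 2 of both striatum groups, the differences of Uchl5, Ngly1 and Txnl1 were -0.19, -0.24 and -0.15, given with no test. That transcription factor, Nfe2l1, differed by 0.07, 0.05 and -0.16 and did not pass the threshold, nor did Pomp, the maturation factor of the core, with 0.18, 0.12 and 0.10. In streptozotocin-treated rats none of the 13 passed in any region.

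Among the ubiquitin and shuttle genes, Uba1, the main ubiquitin-activating enzyme, rose by 0.62 in Goto-Kakizaki prefrontal cortex. Rad23b, which carries ubiquitylated proteins to the proteasome, fell by 0.36 in the Goto-Kakizaki striatum. No gene of this list passed the threshold in the Goto-Kakizaki hippocampus or in any region of streptozotocin-treated rats. The ubiquitin gene Ubb differed by 0.20 or less from controls in each comparison with a diabetic model.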

How the data were processed

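Total RNA from hippocampus, prefrontal cortex and striatum was labelled with Cy3 and hybridised to 27 Agilent 1-colour rat arrays on 7 slides, 3 for each of 9 groups. The authors scanned the arrays with Agilent Feature Extraction 9.1, per the submitters' processing notes, and deposited the scanner output, from which the processed signal intensity, corrected for background, was used. The value table of the series held the same intensity values. Groups came from the sample labels.

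The log2 of the intensity the authors deposited was taken for 41012 probes, 1417 control spots were left out, and the 75th percentile of each array (690.3 to 1527 before log2) was subtracted. Values marked as outliers (2635, of which 15 in members) were left out of the fits. Names of members are those of the array. Genes of the related lists and markers were found by their array name or updated RefSeq symbol. Where several probes matched such a gene, only the one with the highest mean over all arrays was used, among those that passed the filter. For each region, probes entered the test if the scanner software marked them well above background on 2 or more of the 3 arrays in any group. Group means of all 9 groups were fitted with limma 3.58.1 in R 4.3.3 (18 residual degrees of freedom), with Benjamini-Hochberg adjustment over all probes tested in a comparison and a threshold of 0.05. The fit was tested on simulated data. Figures were drawn with matplotlib 3.10.9. The pools of the 3 regions came from the same animals, and p-values treat them as independent. With 3 arrays a group, the number of arrays limits the precision. Members, lists and tests were chosen with earlier results of these data known.

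Named with values in every array were the immune subunits, in comparisons with controls up to 3 other genes with the smallest p in each direction past the threshold, in region comparisons and F-tests up to 3, and any member past it with a 2-fold change. Other members and other probes of these genes were given beside them after their values were seen. Alternatives changed the scaling, background, filter, blocks, array weights and samples. Leaving out replicate 2 of both striatum groups, the streptozotocin test between regions and the slide as a random block were added after seeing the data. Same-numbered arrays deviated together in every pair only between control and streptozotocin prefrontal cortex (correlation of deviations 0.514, 0.449 and 0.698), where each pair also shared a slide. Part of the list of ubiquitin and shuttle genes is not reported here.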

Additional observations from a re-analysis of the deposited data

How the results depend on the processing

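Of 180 counts of members past the threshold recomputed under settings that keep all replicates or leave out a slide, 111 stayed within 1.5 times the value reported and 69 did not. The cause was not tested. In Goto-Kakizaki rats, the count of 3 in the hippocampus was 1 with normexp background correction, 0 with a 2-fold change as well, 0 with the slide as a block, 21 with array weights, 7 with only the groups of the region, 10 with only the 2 groups and 0 within slide 2. The count of 2 in the prefrontal cortex was 4 with quantile normalization, 0 with normexp, 1 with no filter, 0 with a 2-fold change, 17 with array weights, 0 with only 2 groups, 0 with the methods' Welch test and 1 without slide 6. The count of 8 in the striatum was 1 with normexp, 5 with no filter, 1 with a 2-fold change, 13 with the replicate block (4 of them higher), 0 with the slide as a block, 1 with only the region's groups, 0 with only 2 groups, 0 with the Welch test, 1 within slide 4, 3 without slide 6 and 2 without both striatum replicates 2. In streptozotocin-treated rats, the count of 1 in the hippocampus was 3 with array weights and 0 with the 50th percentile, quantile normalization, normexp, no filter, a 2-fold change, the replicate block, the slide as a random block, only 2 groups, the Welch test or no slide 6. The count of 0 became 5 with array weights and 2 within slide 7 in the prefrontal cortex, and 2 with array weights in the striatum. Between regions of control rats, the count of 13 (striatum against hippocampus) was 8 with the 50th percentile, quantile normalization, no filter or only the region's groups, 2 with normexp, 1 with only 2 groups, and 0 with a 2-fold change or the Welch test. The count of 2 (prefrontal cortex against hippocampus) was 1 with normexp or the Welch test, 7 with array weights, 4 with only the groups of the regions, and 0 with a 2-fold change or without slide 6. The count of 5 (striatum against prefrontal cortex) was 1 with normexp, 9 within slide 5, and 0 with a 2-fold change, only 2 groups, the Welch test or within slide 6. The F-test of the Goto-Kakizaki effect between regions gave 1 with the 50th percentile and 24 with array weights, and that of the streptozotocin effect 3 with array weights. The 14 members that differed between the models were 3 with normexp, 9 with no filter, 1 with a 2-fold change, 8 with the replicate block, 35 with array weights and 6 without slide 6. Array weights ran from 0.0888 to 8.84. Leaving out 1 array at a time gave 1 to 2, 1 to 3 and 1 to 9 in Goto-Kakizaki rats (hippocampus, prefrontal cortex, striatum), 0 to 0, 0 to 0 and 0 to 2 in streptozotocin-treated rats, 5 to 14, 1 to 2 and 4 to 7 between regions (in the order above), 0 to 1 for each F-test between regions and 7 to 14 between the models. The F-tests between regions gave 1 without striatum control replicate 1, and the streptozotocin one also without hippocampus streptozotocin replicate 2. For single members, 318 of 539 values kept their direction and their side of the threshold, 219 kept the direction only, and 2 reversed: Psmd1 between striatum and hippocampus was -0.0040 with quantile normalization and -0.013 with normexp. Psmb8 in Goto-Kakizaki rats kept its direction in all settings. It was not past the threshold with the Welch test in any region (adjusted p = 0.0813, 0.236 and 0.585; limma gave 0.00672, 0.00728 and 0.000166), with normexp in the prefrontal cortex (0.69, adjusted p = 0.0504), or with only 2 groups in the prefrontal cortex and striatum (adjusted p = 0.0519 and 0.148). All members were well above background, but the counts still depended on the background correction, as the values with normexp show.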
